A study of Tuber melanosporum with 9 samples.

Results

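Cytosine methylation of the black truffle Tuber melanosporum was compared between ectomycorrhizal root tips (ECM) and free-living mycelium grown on agar (FLM). These are 2 of the 9 samples of the series and 2 of its 5 bisulfite libraries. Members are the cytosines with at least 1 read in ECM and at least 4 reads in FLM. They numbered 19020529 of the 19268534 cytosines that the ECM calls list with a sequence context, made up of 3232351 CG, 3623706 CHG and 12164472 CHH sites, H being any base but G. ECM came from the root tips of common hazel plantlets that had been inoculated with a slurry of truffle mycelium, so that the sample also held root cells of the host, and the strain of the slurry is not stated in the sources used here. FLM was mycelium of Mel28, the strain of the reference genome, harvested from malt agar. Values of a mature fruitbody from Auvergne (FB) and of untreated Mel28 mycelium in liquid culture, which received water in place of 5-azacytidine, are given beside those of ECM and FLM. The labels name no transgene or edited gene for any of the 4. Each is 1 library without a replicate, and stage, isolate and growth conditions vary together and cannot be told apart. ECM has no RNA library in the series, so the tissue label could not be checked against marker genes.

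In filamentous fungi, DNA methylation is found mainly on transposable elements and other repeats, and seldom within genes. CG and CHG sites are symmetrical, so that a methylated site can be copied after replication from the old strand to the new one, whereas CHH sites hold no such template. Repeats fill much of the truffle genome, LTR retrotransposons of the Gypsy superfamily above all, which move through an RNA copy, while DNA transposons such as Tc1/Mariner and PiggyBac are cut out and inserted elsewhere by a transposase. Bisulfite turns unmethylated cytosines into bases read as T, so that the share of reads still showing C is the methylation level.

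ECM was shallow. Its calls hold 1.35 reads per listed cytosine, against 19.9 in FLM, 20.1 in FB and 7.35 in untreated mycelium, and 73.1% of the cytosines kept had a single ECM read. Reads were therefore pooled over all cytosines of a group, and the FLM level of the group was computed at the same cytosines with the same weights. Of the cytosines with at least 4 FLM reads, 37.3% had an ECM read. This share was 28.9% in classified repeats, 36.8% in unclassified repeats, 44.5% outside repeats and 47.4% in gene bodies. By the paper's account a far smaller share of reads mapped to the truffle genome in ECM than in FLM. Read length also differed among the libraries and was shortest in untreated mycelium. The part of mapping and read length in which repeats could be read was not tested. Differences are ECM minus FLM in percentage points. The 95% intervals are exact binomial intervals of the ECM reads, so that they cover counting error of ECM only, and neither differences between root tips nor the fact that neighbouring cytosines share reads. Where no ECM read was methylated, the limit given is 3 reads of the total, which is tighter than the upper end of the exact interval. No test between the stages was possible with 1 library each.

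Over all members, CG methylation was slightly lower in ECM and non-CG methylation slightly higher. The CG level was 18.1% in ECM and 18.7% in FLM, a difference of -0.639 points (95% interval -0.674 to -0.604). The CHG level was 6.79% against 6.05%, a difference of 0.745 points (0.723 to 0.767). At CHH sites it was 8.20% against 7.59%, which is 0.612 points (0.599 to 0.625). On a far smaller set of cytosines covered in ECM, FB and FLM, the paper reports a CG level slightly higher in ECM than in FLM. Its CHG and CHH levels are higher in ECM too. With at least 4 ECM reads per cytosine the CG difference here was -0.292 points. Why the CG sign differs from that of the paper was not tested. The sign at CG sites depended on how FLM was weighted: with all FLM reads pooled at their own depth the CG difference was 4.33 points over all members and 3.29 points in classified repeats. That pooling gives ECM and FLM unlike weights at the same cytosines. FLM had 15.7 reads per cytosine in classified repeats and 25.1 outside repeats. The matched weights used elsewhere were chosen so that depth cannot by itself give a difference. Both stages kept the same order of contexts, with CG above CHH and CHH above CHG. The differences recurred along the genome. Of 294 scaffolds with at least 2000 ECM CG reads, 227 were lower in ECM and 67 higher, with a median difference of -0.555 points and quartiles of -1.47 and -0.0412. CHG was higher in ECM on 287 of 309 scaffolds and CHH on 315 of 357.

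Gene bodies outside repeats held next to no methylation in either stage, and ECM read higher there in all 3 contexts. Their ECM level was 0.670% at CG, 0.719% at CHG and 0.748% at CHH sites. In FLM it was 0.305%, 0.282% and 0.285%. The differences were 0.365, 0.437 and 0.463 points, and CHH was higher in all 214 scaffolds with enough reads. FB read 0.504% and untreated mycelium 0.381% at the CG sites of gene bodies where the 3 deep libraries all had 4 reads or more, where ECM had 0.672% and FLM 0.299%. An unconverted cytosine and a methylated one give the same read, and which of them the reads in gene bodies are was not tested. The gene-body level of the same library and context was subtracted as a background, with the remainder divided by the share of reads outside that background. In gene bodies within 100 bp of a repeat the CHH difference was 0.367 points (0.0779 to 0.683). Farther from repeats it was 0.464, 0.481 and 0.459 points in 3 successive distance bins. Over all cytosines outside repeats, within 100 bp of one, CHH was 8.43% in ECM and 8.31% in FLM, a difference of 0.124 points. Whether the gene-body level also holds as a background in methylated parts was not tested, so the subtraction is an alternative scale and not a measured correction. After it the genome-wide differences were -0.943 points for CG, 0.336 for CHG and 0.184 for CHH.

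Classified repeats, the 27168 of 45028 annotated repeats that carry a class, held the methylation. In ECM 68.5% of their CG, 15.5% of their CHG and 18.2% of their CHH reads were methylated. FLM had 70.7%, 14.0% and 17.1% at the same cytosines. The differences were -2.15 points for CG (-2.24 to -2.05), 1.44 points for CHG (1.38 to 1.50) and 1.11 points for CHH (1.07 to 1.14). The 17860 unclassified repeats were far less methylated and shifted the same way, from 23.1% in FLM to 21.8% in ECM at CG sites. Outside repeats the CG level was 2.35% in ECM and 2.42% in FLM, and the difference of -0.0765 points changed sign with the minimum of ECM reads. With the gene-body level subtracted, CHG and CHH in classified repeats remained higher in ECM, by 1.07 and 0.726 points, whereas outside repeats the differences were -0.0502 and -0.101 points.

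The repeat classes did not share 1 difference. Gypsy elements held most of the CG reads in classified repeats and their CG level was nearly the same in both stages, at 78.6% in ECM and 79.1% in FLM (-0.455 points, -0.562 to -0.349). Their non-CG methylation was higher in ECM, with 17.0% against 15.1% at CHG and 20.2% against 18.6% at CHH sites. LINE and I elements, retrotransposons without long terminal repeats, had 76.6% CG methylation in ECM and 80.04% in FLM (-3.46 points, -3.68 to -3.24), and their CHG and CHH levels were 1.64 and 1.26 points higher in ECM. LTR elements without a superfamily resembled Gypsy, with -0.598 points at CG, 2.15 at CHG and 1.45 at CHH sites.

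Several classes of DNA transposons showed the widest CG differences. Tc1/Mariner elements had a CG level of 39.4% in ECM (39.0 to 39.7%) and 49.2% in FLM, a difference of -9.80 points over 73834 ECM reads. PiggyBac elements had 35.6% in ECM (33.9 to 37.2%) and 55.4% in FLM, a difference of -19.8 points over 3305 reads. PIF-Harbinger elements had 56.3% against 68.2% over 1462 reads. In Tc1/Mariner and PiggyBac the non-CG levels were lower in ECM too, unlike those of Gypsy. PiggyBac had 12.4% against 16.6% at CHG and 14.1% against 18.5% at CHH sites, and Tc1/Mariner 13.7% against 14.2% and 15.7% against 16.7%.

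Of the remaining classes only Helitrons differed as widely at CG sites. Helitrons, which replicate as a rolling circle, had 66.3% CG methylation in ECM and 85.4% in FLM, on only 582 reads. Copia, the other large LTR superfamily, had 28.6% against 34.1% (-5.45 points, -5.84 to -5.06), with CHG within counting error (-0.0372 points, -0.215 to 0.143) and CHH at -0.273 points. Differences at CG sites were -4.31 points in hAT, -4.19 in Mutator, -2.22 in other elements with terminal inverted repeats, -1.65 in MITEs and -0.728 in Ngaro elements. DIRS elements, at 8.64% and 8.45%, differed by less than counting error, and so did Penelope elements. SINE and Jockey elements had at most 12 ECM CG reads and give no usable level. The plot of CG levels by repeat class shows Gypsy at the top with overlapping symbols and the DNA transposons with the widest gaps.

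**Figure D1:**
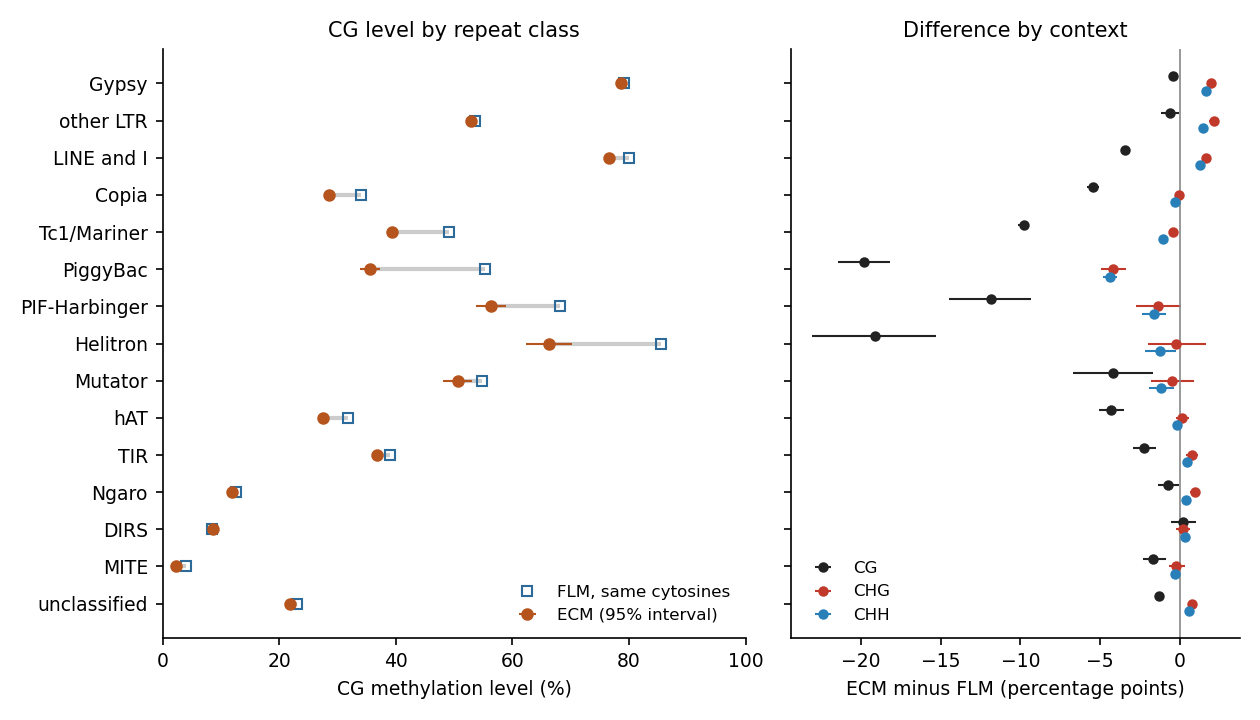
CG methylation level by repeat class (left, percent, ECM with its 95% counting interval and FLM at the same cytosines) and ECM minus FLM by context (right, percentage points, bars are 95% counting intervals of ECM). Gypsy differs by -0.455 points at CG sites, Tc1/Mariner by -9.80 and PiggyBac by -19.8.

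FB and untreated mycelium were read where FLM, FB and untreated mycelium all had 4 reads or more, weighted by the same ECM reads. All differences given here share FLM. The CG level of Tc1/Mariner was 36.5% in ECM, 46.4% in FLM, 45.5% in FB and 47.0% in untreated mycelium, so that ECM was the lowest of the 4. It was also the lowest in PiggyBac, with 33.5% in ECM, 53.4% in FLM, 49.4% in FB and 54.6% in untreated mycelium. PIF-Harbinger had 55.9% in ECM and between 67.6% and 70.5% in the other libraries. Copia did not single out ECM: its CG level was 29.6% in ECM and 27.6% in FB, against 35.3% in FLM and 37.0% in untreated mycelium. Elements of hAT likewise had 27.3% in ECM and 27.7% in FB, against 31.9% and 33.0%. Gypsy ranged from 78.4% in ECM to 82.0% in untreated mycelium.

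In non-CG contexts FLM was the lowest of the 4 libraries within Gypsy and LINE and I elements. Gypsy CHG methylation was 17.4% in ECM, 15.5% in FLM, 17.5% in FB and 18.1% in untreated mycelium. The CHH level of LINE and I elements was 18.4% in ECM, 17.2% in FLM, 17.6% in FB and 20.9% in untreated mycelium. FB and untreated mycelium were thus above FLM in these classes as well. In Tc1/Mariner elements ECM was instead the lowest at CHH sites, with 15.0% against 16.1% in FLM, 16.1% in FB and 16.4% in untreated mycelium.

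The CG difference was smallest in size, and the non-CG excess of ECM greatest, in the longest classified repeats. Classified repeats up to 500 bp had a CG level of 31.7% in ECM and 34.6% in FLM (-2.91 points). Those longer than 500 and up to 1500 bp had 52.6% and 56.9% (-4.28 points), those longer than 1500 and up to 4000 bp 64.6% and 69.2% (-4.55 points). Repeats over 4000 bp, most of whose reads are from Gypsy, had 77.1% and 77.7% (-0.605 points). CHG and CHH were higher in ECM in every bin. This excess was greatest over 4000 bp (2.06 and 1.83 points) and smallest between 500 and 1500 bp (0.509 and 0.146 points). With the gene-body level subtracted, the CHH difference was -0.204 points up to 500 bp and -0.241 points between 500 and 1500 bp, and 1.46 points over 4000 bp.

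**Figure D2:**
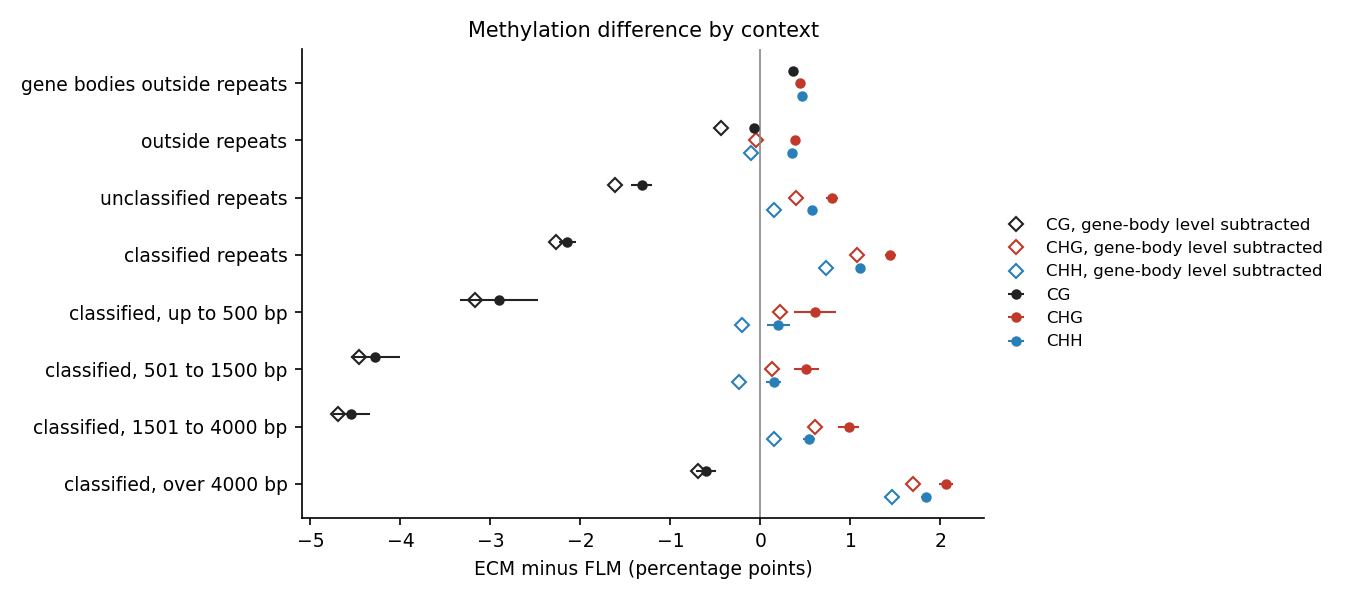
ECM minus FLM in percentage points for CG, CHG and CHH sites, in gene bodies, outside repeats, in unclassified and classified repeats and in 4 length bins of classified repeats. Filled symbols carry the 95% counting interval of ECM and open diamonds show the difference after the gene-body level was subtracted, which is 1.46 points for CHH in repeats over 4000 bp and -0.241 points in those between 500 and 1500 bp.

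Of Gypsy, Copia, LINE and I and Tc1/Mariner elements, Gypsy alone had no lower CG level in ECM over 4000 bp. Gypsy elements over 4000 bp were at 80.8% in ECM and 80.6% in FLM (0.181 points, 0.0594 to 0.303), and those between 1500 and 4000 bp at 77.6% and 80.03%. LINE and I elements differed alike in all bins, between -4.79 points up to 500 bp and -3.24 points over 4000 bp. Tc1/Mariner elements differed by -4.78 points up to 500 bp, by -9.57 points between 500 and 1500 bp and by -13.5 points between 1500 and 4000 bp, where ECM had 44.8% and FLM 58.3%. The few reads of Tc1/Mariner elements over 4000 bp gave -3.16 points. PiggyBac went from -9.79 points up to 500 bp to -22.2 points between 1500 and 4000 bp. Copia differed most between 500 and 1500 bp, with 31.8% against 41.3%, and by -3.66 points over 4000 bp.

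The distance from the border of a repeat gave a related pattern. At 1000 bp or more inside a classified repeat CG was at 76.6% in ECM and 77.3% in FLM, whereas at 200 to under 500 bp from the border it was at 62.4% and 66.9% (-4.48 points). In the outermost 50 bp it was 47.6% and 50.0%. Outside repeats, methylation declined with distance in both stages. Within 100 bp of a repeat the CG level was 12.3% in ECM and 13.7% in FLM (-1.45 points), between 100 and 500 bp it was 6.67% and 7.85% (-1.18 points), and between 500 and 2000 bp 2.82% and 3.14%. Beyond 2000 bp all 3 contexts were higher in ECM, by 0.294 to 0.452 points. The depth of a repeat's interior goes with its length and class, whose parts in the profile were not tested.

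**Figure D3:**
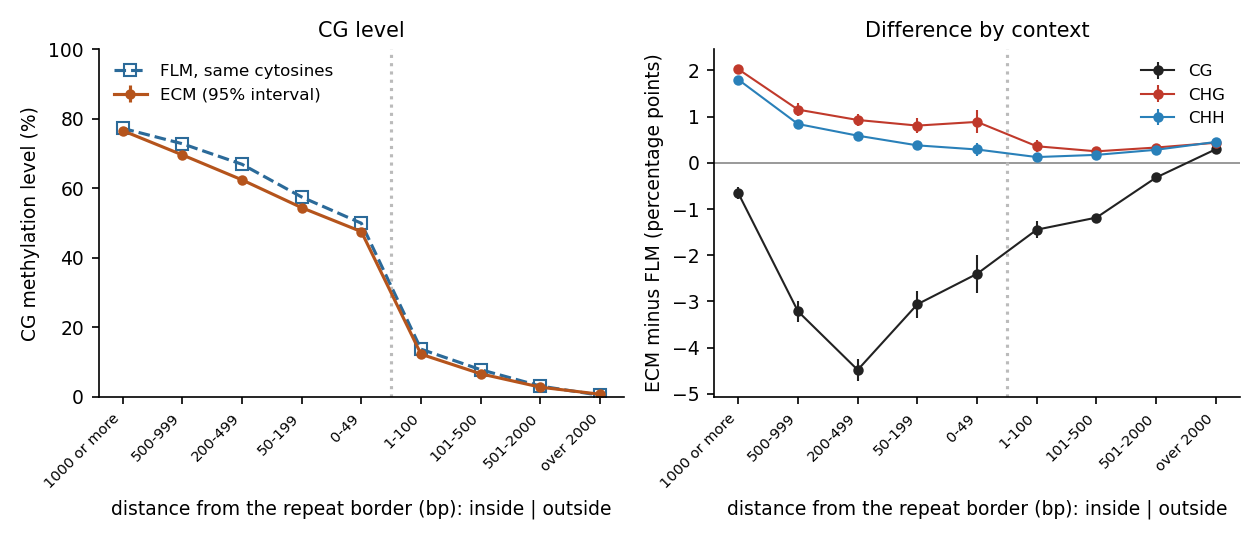
CG methylation level of ECM and FLM (left, percent) and ECM minus FLM by context (right, percentage points) against the distance in bp from the border of a classified repeat, inside (left of the dotted line) and outside it, with 95% counting intervals of ECM. The CG difference is widest 200 to under 500 bp inside the border, at -4.48 points, and the non-CG differences are widest at 1000 bp or more.

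The base after the cytosine ordered non-CG methylation of classified repeats in the same way in both stages. There, CHH sites followed by A had 25.7% methylation in ECM and 24.7% in FLM, those followed by C 18.9% and 17.6%, and those followed by T 9.17% and 8.17%. CHG sites followed by A had 19.9% and 18.6%, by C 14.1% and 12.6% and by T 11.5% and 9.90%. The ECM excess was present at each of these 6 kinds of site, from 0.998 points (CHH, next base T) to 1.58 points (CHG, next base T). In gene bodies ECM was highest at sites followed by T and FLM at those followed by A, and the ECM excess was 0.659 points at CHG and 0.671 points at CHH sites followed by T, and 0.265 and 0.300 points at those followed by C. In Gypsy elements CHH sites followed by A were 1.84 points higher in ECM, by C 1.94 points and by T 1.24 points. In Tc1/Mariner elements sites followed by A were lower in ECM (-2.05 points, 22.1% against 24.2%), as were those followed by C (-1.24 points), while sites followed by T were 0.220 points higher.

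Single repeats were examined where a copy had at least 20 ECM CG reads, which held for 17817 copies. The median difference was -0.256 points, with quartiles of -4.56 and 1.83. A copy was called lower or higher where ECM and FLM differed by at least 20 points and the FLM level lay outside the 95% interval of ECM. By this rule 886 copies were lower in ECM (4.97% of those examined) and 206 were higher (1.16%). Copies above 80% in FLM could not be called higher, and 7905 of the 17817 were at 80% or more. The interval was applied to each copy without correction for the number of copies. Counting error alone thus gives some calls in both directions, and how many was not tested. Both shares differed with reads per copy: with at least 100 reads, 40 of 3909 copies were lower and 11 higher. Length mattered too. Of classified copies 2.95% were lower up to 500 bp, 10.6% between 500 and 1500 bp, 9.67% between 1500 and 4000 bp and 1.25% over 4000 bp. Copies under 20% in FLM could not be called lower, and only those under 10% were counted. The latter were 388 of 440 classified copies up to 500 bp, 639 of 2202 between 500 and 1500 bp, 314 of 3889 between 1500 and 4000 bp and 110 of 4174 over 4000 bp. The parts of reads, length and FLM level were not separated. The copies that were lower had a median level of 39.5% in ECM and 84.0% in FLM, at a median of 0.489 ECM reads per cytosine against 0.443 in the uncalled copies. Their FLM depth was 16.1 reads per cytosine against 17.2, and the part of depth in the calls was not tested. Their non-CG methylation was also lower, by -4.44 points at CHG and -5.51 points at CHH sites, while the uncalled copies had 1.58 and 1.38 points more in ECM. Of 590 lower copies readable in FB and untreated mycelium, FB was at least 20 points below FLM in 211 and untreated mycelium in 8. Among 13545 uncalled copies the counts were 191 and 25. Of 106 higher copies FB was at least 20 points above FLM in 55 and untreated mycelium in 7, against 92 and 39 of the uncalled ones. All these counts share FLM with the calls.

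Copies lower in ECM were most frequent in the PiggyBac and Tc1/Mariner classes. Of 1178 Tc1/Mariner copies, 279 (23.7%) were lower in ECM and 25 (2.12%) higher, against 4.97% and 1.16% over all repeats. PiggyBac had 27 lower copies of 63 and none higher, and Copia 83 of 608 (13.7%). Gypsy was under the background with 166 of 6243 (2.66%), as were the unclassified repeats with 212 of 7112 (2.98%), and LINE and I elements had 69 of 1529 (4.51%). All these shares include copies under 10% in FLM, which could not be called lower. Such copies were 4623 of the unclassified repeats, 375 of Tc1/Mariner, 290 of Copia, 182 of Gypsy, 40 of LINE and I and 15 of PiggyBac. Over all repeats they were 6074 of 17817. The ranking of classes against the background thus depends partly on them, and shares without them were not computed. Copies above 80% in FLM likewise could not be called higher. At 80% or more were 4096 of the Gypsy, 1195 of the LINE and I, 378 of the Tc1/Mariner and 19 of the PiggyBac copies. Over all Tc1/Mariner copies, those under 10% in FLM included, the median difference was -0.880 points and the lower quartile -17.5 points. Among the 238 copies at 80% or more in untreated mycelium that were also readable in FB, the median level was 74.3% in ECM and 86.8% in FLM. In the plot of copy levels the Tc1/Mariner copies called lower lie as a scatter below the diagonal that reaches down to 0%, while Gypsy copies form 1 cloud near the diagonal.

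**Figure D4:**
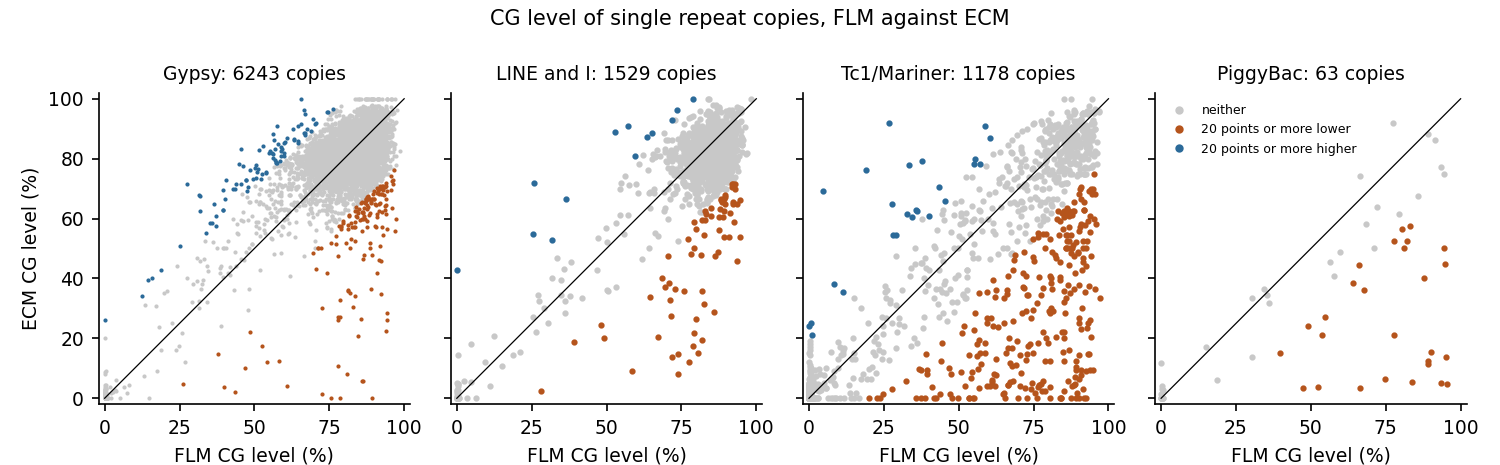
CG level in percent of single repeat copies with at least 20 ECM CG reads, FLM on the horizontal and ECM on the vertical axis, for 4 classes, where each point is a copy and the line marks equal levels. Orange points are called lower in ECM (166 in Gypsy, 69 in LINE and I, 279 in Tc1/Mariner and 27 in PiggyBac) and blue points higher.

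Copies highly methylated in FLM and nearly unmethylated in ECM were rare. FLM methylated 7905 copies at 80% or more, and 203 of these were under 50% in ECM and 54 under 10%. Of the 54, on 43 scaffolds, 25 were Tc1/Mariner, 13 unclassified, 8 Copia, 4 Gypsy and 3 PiggyBac elements and 1 another element with terminal inverted repeats. They had 20 to 76 ECM CG reads each, and 21 of them had no methylated read. For 38 of them FB and untreated mycelium could be read as well. Their median level was 3.52% in ECM, 88.4% in FLM, 23.2% in FB and 93.0% in untreated mycelium. FB was under 10% in 17 of the 38 and at 80% or more in 7, whereas untreated mycelium was at 80% or more in 36. The reverse, copies under 10% in FLM and at 50% or more in ECM, was seen in 6 of 6074 copies.

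Choosing copies by a high FLM level tends to leave other libraries lower, so copies were also chosen by a level of 80% or more in untreated mycelium, which is neither of the stages compared but shares the strain of FLM. Of 6824 such copies 181 were under 50% in ECM, 116 in FB and none in FLM. Among the 238 Tc1/Mariner copies, 68 (28.6%) were under 50% in ECM and 14 (5.88%) in FB, and the median level was 74.3% in ECM, 86.8% in FLM and 85.3% in FB. Of 15 PiggyBac copies 7 were under 50% in ECM and none in FLM or FB. For Copia the order turned, with 18 of 142 copies under 50% in ECM and 30 in FB. Among 3718 Gypsy copies 19 were under 50% in ECM and 16 in FB.

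The 3 lowest and the 3 highest of the copies with at least 100 ECM CG reads are given with their positions in the v1.0 assembly. A complete Copia element on scaffold 18 (749154 to 753823) had no methylated read among 168 ECM CG reads, which allows a level of up to 1.79%, and 71.3% in FLM. FB had 2.85% there and untreated mycelium 75.1%. Its CHG level was 0% in ECM and 11.2% in FLM, and its CHH level 0.463% and 14.7%. The 2000 bp on either side of it followed, with 16.5% CG methylation in ECM and 81.4% in FLM. The next 2 were copies of a single unclassified family on scaffold 35. At 724013 to 728586 ECM had 18.5%, FLM 88.3%, FB 43.1% and untreated mycelium 95.2%, and at 773254 to 777841 the levels were 21.2%, 88.6%, 51.8% and 92.3%. Their flanks differed far less, with 17.2% in ECM and 22.7% in FLM beside the first and 24.7% and 21.2% beside the other.

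The 3 highest copies were all Gypsy elements. On scaffold 10 (1075245 to 1079279) ECM had 77.5% of 120 reads methylated (69.0 to 84.6%), FLM 46.3%, FB 82.6% and untreated mycelium 37.3%. On scaffold 164 (11042 to 19660) the levels were 81.9%, 54.9%, 78.7% and 53.3%. On scaffold 2 (676294 to 683790) they were 72.8%, 47.3%, 74.6% and 58.5%. In these 3 copies ECM and FB were the higher libraries and both Mel28 mycelia the lower ones, and non-CG methylation was also higher in ECM than in FLM, for instance 11.9% against 5.60% at the CHG sites of the first.

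Copies that share an identifier in the repeat annotation were pooled as families, of which 566 had at least 500 ECM CG reads. CG was lower in ECM in 334 of them and higher in 232, with a median of -0.655 points. It was at least 10 points lower in 41 (7.24%) and at least 10 points higher in none (0%). Tc1/Mariner supplied 21 of the 41 from 46 families, Copia 6 of 27, Gypsy 4 of 254 and the unclassified repeats 4 of 171, and both PiggyBac families were among them. The 5 lowest families were 3 of Tc1/Mariner and 2 unclassified ones. Tmel-B-G3408-MAP4, a Tc1/Mariner family of 52 copies annotated as incomplete, had 13.4% in ECM (11.3 to 15.7%) and 44.5% in FLM, and 13 of its 20 copies with enough reads were lower while single copies ranged from 0% to 75% in ECM. Tmel-B-G10118-MAP3 had 15.1% against 43.7% and Tmel-B-G4507-MAP4 40.0% against 64.5%. The unclassified families Tmel-B-R949-MAP5, which includes both copies on scaffold 35, and Tmel-B-R950-MAP3 had 9.14% against 36.1% and 16.4% against 42.4%.

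The 5 highest families were Gypsy elements annotated as incomplete, with differences of 8.80 to 9.64 points. Tmel-B-G12495-MAP3 led with 79.0% in ECM (75.3 to 82.5%) and 69.4% in FLM over 11 copies, and the Gypsy copy on scaffold 164 belongs to it. Of the 5 families with most ECM reads, 4 were unclassified and nearly unmethylated. Tmel-B-R1638-MAP4, with 38113 ECM CG reads from 402 copies, had 0.703% in ECM and 0.339% in FLM, a difference of 0.364 points. The only methylated one, the complete Gypsy family Tmel-B-P171.3-MAP4, had 84.5% in ECM (84.0 to 84.9%) and 86.2% in FLM, with 2 of its 274 copies with enough reads lower and 1 higher. Tmel-B-R2355-MAP3 had 0.638% and 2.44%.

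CG sites are read on both strands, and some had exactly 1 ECM read on each. Such reads come from separate fragments, so they do not show both strands of 1 DNA molecule, and a site methylated in part of the cells gives unequal reads as well. In classified repeats 56.0% of 64938 such sites were methylated on both strands, 21.98% on 1 strand (21.7 to 22.3%) and 22.1% on neither. The products of the FLM fractions of both strands at the same sites come to 61.5% for both strands and 14.9% for 1 strand. In Gypsy elements 24.4% of sites were methylated on 1 strand, against 17.2% from the FLM fractions, although the level was nearly the same. In Tc1/Mariner elements the share was 15.9% against 9.39%, and 55.4% of sites were methylated on neither strand.

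Sorting CG sites by their FLM fraction, which chose the bins, gives a description without a test. At sites fully methylated in FLM the level was 81.7% in ECM, 85.4% in FB and 94.4% in untreated mycelium. At sites with an FLM fraction above 0.8 and under 1 it was 80.4%, 83.6% and 92.8%. Sites of intermediate FLM methylation, above 0.1 up to 0.5 with a mean of 30.8%, were at 60.0% in ECM, 61.8% in FB and 53.0% in untreated mycelium. Over all members, 78.2% of the ECM reads on intermediate sites fell in classified repeats, which hold 20.4% of all CG reads, and there ECM had 66.4% against 31.7% in FLM. Outside repeats intermediate sites were at 30.2% in ECM and 26.7% in FLM. At sites without a methylated FLM read ECM had 1.14%, FB 1.01% and untreated mycelium 0.462%.

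**Figure D5:**
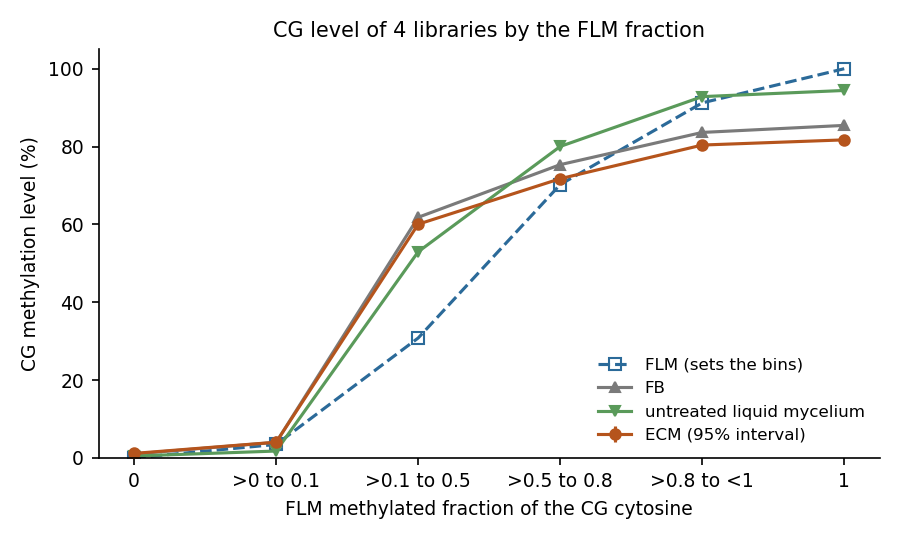
CG methylation level in percent of ECM (with 95% counting intervals, smaller than the symbols), FB and untreated liquid mycelium in 6 bins of the FLM fraction, where FLM, FB and untreated mycelium all had 4 reads or more. FLM, dashed, sets the bins, and at fully methylated FLM sites ECM lies at 81.7% and untreated mycelium at 94.4%.

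Genes were nearly unmethylated in both stages. Of 7004 genes with at least 30 ECM CG reads, 3420 had no methylated ECM read, 20 reached 20% in ECM and 21 in FLM, and 19 of these were the same genes. CG was at least 10 points lower in ECM in 4 genes (0.0571%) and at least 10 points higher in 4 (0.0571%). GSTUMT00008416001 on scaffold 46 had 0 of 132 ECM reads methylated, which allows up to 2.27%, against 29.6% in FLM, 0.428% in FB and 23.7% in untreated mycelium. GSTUMT00009672001 on scaffold 6 had 0 of 171 reads, which allows up to 1.75%, against 28.6% in FLM, 0.398% in FB and 6.58% in untreated mycelium. Neither gene overlaps an annotated repeat, and in both ECM and FB were near 0. GSTUMT00003190001 had 0 of 31 reads, which allows up to 9.68%, and 14.7% in FLM. GSTUMT00000329001, 77.8% of which is covered by repeats, had 27.0% and 38.0%, and GSTUMT00007336001, which lies wholly within repeats, 83.0% (69.2 to 92.4%) and 90.5%.

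The highest gene, GSTUMT00000731001 on scaffold 215, had 30.1% of 123 ECM reads methylated (22.1 to 39.0%) and 0.176% in FLM, 0.399% in FB and 0.627% in untreated mycelium, and 30.7% of it is covered by a repeat. GSTUMT00001471001 followed with 15.4% of only 39 reads (5.86 to 30.5%) against 0.433% in FLM, and GSTUMT00008239001, covered by repeats over 93.6% of its length, with 54.3% against 39.7%. GSTUMT00010608001 and GSTUMT00005824001 had 10.7% and 10.1% in ECM and under 1% in each of the other 3 libraries. No function is annotated for these genes in the sources used here.

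The genes of the methylation machinery held no methylation of note in ECM. TmelDnmt1, a putative DNA methyltransferase of the class of RID and Masc1, which act on repeats before meiosis in Neurospora crassa and Ascobolus immersus, had 2 methylated of 325 ECM CG reads (0.615%) and 0.363% in FLM. TmelDnmt2, a putative methyltransferase like DIM-2, the DNA methyltransferase of Neurospora crassa, had 0.450% and 0.271%. The homologs of DIM-5, the histone H3 lysine methyltransferase on which DNA methylation depends in Neurospora crassa, and of DMM-1, which limits the spread of methylation there, had 2.08% (0.253 to 7.32%) and 0.651% in ECM. The homolog of HP1, which binds methylated histone H3, had 0 of 116 reads and that of the protein phosphatase PP1 0 of 140, which allow up to 2.59% and 2.14%.

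Among the 10 longest scaffolds, 8 had a lower CG level in ECM and the differences ran from -1.21 to 0.587 points. ECM reads were spread over scaffolds much like FLM reads, with quartiles of 1.00 and 1.08 for the ratio of their shares. Scaffold 355, of 12744 bp, was the only one with an ECM share over 3 times the FLM share. Ribosomal RNA genes lie on it, and the part of reads from hazel root cells there was not tested. It held 14.9 times the FLM share, and its CG level was 47.3% in ECM and 47.5% in FLM, and without it the differences by context moved by less than counting error. The level at CG sites varied with ECM depth, from 23.2% in ECM and 24.0% in FLM at sites with 1 ECM read to 6.23% and 6.54% at those with 4 to 6 reads, and it was 12.4% and 12.5% at those with 7 or more. The CG difference was negative in each of 5 depth classes, but at 7 or more reads its interval reached 0 (-0.0874 points, -0.545 to 0.381).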

How the data were processed

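Genomic DNA was sheared to 150 to 300 bp, treated with bisulfite for 10 hours and sequenced as 1 library per stage. BS Seeker, of a version not given in the sources used here, served the authors to align the reads to the v1.0 assembly of 398 scaffolds, although the submitters' processing notes list a plant genome build. The deposited calls give, as counts, the methylated and the total reads per cytosine with at least 1 read, without normalization. Reads that map to several near-identical repeats may be lost or misplaced by the aligner, which lowers the depth in repeats. The reads carry no molecular identifiers.

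Cytosines needed at least 1 ECM read and 4 FLM reads, after 7 ECM cytosines without a context were left out. ECM reads were pooled, and each FLM fraction was weighted by the ECM reads of its cytosine. Intervals are 95% Clopper-Pearson intervals. A difference took the ECM bounds minus the FLM level, which has counting error of its own. Positions of the untreated calls were shifted by 1 base, after which 95.7% of ECM cytosines were found there, against 24.4% without. Repeat class, length and position came from the deposited annotation. A cytosine in several repeats counted for the longest. LINE and I, as annotated, were joined into a class. Gene models of RefSeq (ASM15164v1) on the scaffolds of the deposited gene table were matched for 7420 of 7496 genes. Expression, fold-change and p-value columns of the deposited tables were not used, and the 5-azacytidine library was not analysed here.

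Named were the 5 families with most ECM CG reads, the 5 highest and 5 lowest of those with at least 500, the 3 highest and lowest copies with at least 100, the 10 longest scaffolds and those with an ECM share over 3 times that of FLM, 6 machinery genes, and the 5 highest and lowest genes with at least 30 reads. Members and lists were chosen with earlier results of these data known. Alternatives changed the read minima, the weights, the highest depth, scaffolds, spacing of cytosines, background and overlapping repeats. Computations used Python 3.11.15, numpy 2.4.6, pandas 2.3.3 and scipy 1.17.1, figures matplotlib 3.10.9, and the estimator was tested on simulated data.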

Additional observations from a re-analysis of the deposited data

Results flagged for a closer look

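ECM reads at cytosines with fewer than 4 FLM reads fell outside the members and entered only the alternative that asked for at least 1 FLM read. The ECM level there was 69.6% at 29853 CG sites (69.1 to 70.1%), 12.8% at CHG and 13.3% at CHH sites. They were singled out because these levels exceed the limit that a count of 0 allows, which any group of so many reads with a few methylated ones would do. At the 27513 CG sites with 1 to 3 FLM reads ECM had 70.1% (69.5 to 70.6%) and FLM 76.6%, where FLM carries a large counting error per site. At CHG sites of this kind the levels were 12.8% and 11.9%, and at CHH sites 13.5% and 13.2%. The 2340 CG sites without any FLM read had 64.0% in ECM (62.1 to 65.9%).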

How the results depend on the processing

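Of 72 values recomputed with other read minima, weights, windows and exclusions, 27 kept their direction and moved by less than counting error, 40 moved and 5 reversed. With FLM reads pooled at their own depth, CG reversed to 4.328 points over all members, 3.294 in classified repeats and 0.4179 outside repeats, while CHG was 1.775, CHH 1.976, CHH in classified repeats 1.588 and CHH outside repeats 0.7761 points. With at least 2 ECM reads per cytosine the differences were -0.4822 (CG), 0.65 (CHG) and 0.5199 (CHH) points, -2.272 (CG) and 0.9361 (CHH) in classified repeats, and -0.008843 (CG) and 0.3657 (CHH) outside repeats. With at least 4 ECM reads they were -0.2921, 0.7039 and 0.4656, then -2.888 and 0.3412 in classified repeats, and outside repeats CG reversed to 0.08201 while CHH was 0.5011. At least 1 FLM read gave -0.6786 for CG, and at least 10 FLM reads -0.4278 for CG, -1.633 for CG in classified repeats, -0.01648 for CG and 0.3765 for CHH outside repeats. Means of the fractions of single cytosines gave -0.7087 (CG), 0.7803 (CHG), 0.644 (CHH), 1.149 (CHH in classified repeats) and -0.1106 (CG outside repeats). With 1 cytosine per window of 300 bp the differences were -2.005, 1.075 and 1.06 over all members, -3.151 (CG) and 1.638 (CHH) in classified repeats, and -0.9395 (CG) and 0.5374 (CHH) outside repeats. With the gene-body level subtracted they were -0.9434, 0.3357 and 0.1845, then -2.268 (CG) and 0.7256 (CHH) in classified repeats, and outside repeats -0.437 for CG, while CHH reversed to -0.1006. Windows and read minima keep other cytosines, with a larger or smaller share in repeats, and the cause of each shift was not tested. Leaving out cytosines with over 3 ECM reads, scaffold 355 or cytosines in several repeats moved no value beyond counting error.

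A pair of alternatives was chosen after seeing the data. With at least 100 ECM reads per copy, 1.023% of copies were lower in ECM and 0.2814% higher, and among classified repeats alone 6.296% and 1.401%. No paired analysis was possible because each stage is 1 library and no test was run, and for the same reason no replicate could be left out. The ECM depth limits single copies, families and genes most. All intervals cover counting error only.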
